A study of Homo sapiens with 12 samples.

Results

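The response of A549 cells to SR11302 was measured across all genes with 4 of the 12 RNA sequencing libraries of the series. A549 is a human lung adenocarcinoma cell line, and no change to its genome by the study is named in the labels. A549_SR11302 held 2 libraries from cells given 10 µM SR11302 for 72 h, and A549_NT held 2 libraries from cells labelled non-treatment. SR11302 is a synthetic retinoid chosen for blocking the transcription factor AP-1. The sources do not settle whether the untreated cells received the solvent DMSO. They also do not say whether the libraries of a group came from separate cultures, so the p-values measure the spread between libraries, which may be technical. Each group was 1 cell line at 1 dose and 1 time. A further 2 sets of libraries served to show where the A549 response to SR11302 differed. In B2B, the immortalised bronchial epithelial line BEAS-2B, 2 libraries were untreated and 2 came from cells given the same dose of SR11302 for the same time. In A549_SP600125, 2 libraries came from A549 cells treated for 72 h with SP600125 at 50 µM, which blocks the kinases of Jun (JNK).

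AP-1 is a family of dimers of Jun and Fos proteins that bind short sites in promoters and enhancers. FOS, FOSB, EGR1 and their kin are immediate early genes, which growth factor signals switch on through the kinase ERK and the serum response factor SRF, and whose mRNAs are short-lived. In epithelial tumours AP-1 is known for driving genes of growth and invasion, whereas the factors p53 and FOXO are known for genes of cell cycle arrest and stress. A549 is known to keep functional p53 and to lack the gene CDKN2A.

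Reads counted in genes numbered 19868320 and 20455919 in the A549_NT libraries and 21180550 and 23625267 in the A549_SR11302 libraries. Levels are CPM, the reads of a gene relative to a library total scaled by TMM, given with replicate 1 first. Fold changes are given on the log2 scale ± SE, with 2 libraries per group. The fit shared 1 estimate of the spread over all 12 libraries, so SE and p-values are not those of the 4 compared libraries alone. The p-values are those of the quasi-likelihood test in edgeR after Benjamini-Hochberg adjustment across the genes tested. A gene was called where this p was under 0.05 and its log2 change was 0.5 or more in either direction. Where leaving out 1 library moved a list's calls by over 1.5 times, the calls without it follow in brackets in the same order. Moves of a direction with only 0 or 1 calls are not always given, so such counts are not to be read as stable. The lower calls of collagen chains, integrins and laminins, MHC class I genes and lysosome genes moved in this way. Of 16373 genes tested, 27.8% were called, 14.8% higher and 13% lower with SR11302. Of the calls, 53.2% were higher, and 66.3% were higher when the libraries were scaled by their size alone. The median log2 fold change over all genes was 0.02. The A549_SR11302 libraries differed from each other more than those of any other group, with a chi-square per degree of freedom of 44 over genes, against 10.4 in A549_NT and 2.58 to 13.5 in the other groups. Reads in no annotated gene made up 23.8 to 25.9% of tallied reads in A549_NT and 16.7 to 20.1% in A549_SR11302. They made up 25.78 and 24.15% in B2B_NT, 14.58 and 14.7% in B2B_SR11302, and 16.95 and 17.66% in A549_SP600125. Untreated libraries thus had the higher share in both lines. Preparation of the libraries was not tested apart from treatment, and the part of these reads in the results was not tested.

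All 12 genes that mark A549, among them the keratins KRT8 and KRT18, were detected in each library, with summed levels of 27052 to 29603 CPM in A549_NT and 21621 to 21647 CPM in A549_SR11302. Markers of other cell types were scarce. The 9 fibroblast markers summed to 8.78 and 21.6 CPM without treatment and 10.9 and 12.4 CPM with SR11302, the 8 endothelial markers reached at most 1.65 CPM and the 10 immune markers at most 4.18 CPM in any of the 4 libraries. The 10 B2B markers summed to 29.6 and 52.8 CPM in A549_NT and to 66.6 and 83.8 CPM in A549_SR11302. CDKN2A, at 151 to 308 CPM in the B2B libraries, had 0 counts in A549_NT replicate 1 and in both A549_SR11302 libraries. A549_NT replicate 2 had 15 counts of it (0.796 CPM), which is 0.528% of the lowest B2B level. The counts of 0 allow at most 0.0966% and 0.0832% of that level in the treated libraries, by the limit of 3 counts, which covers counting error only. The part of these counts in the results was not tested.

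Counts of calls in A549 given below without a share are to be read against 14.8% higher and 13% lower over all genes. Counts of calls in B2B are to be read against 11.4% higher and 11.1% lower. Of the 47 gene lists read against these shares, p53 targets, FOXO targets and interferon-stimulated genes had most members called higher. Immediate early genes, AP-1 subunits, airway secretory genes and liver and gut-like genes had most members called lower. FOXO targets lost this majority without A549_NT replicate 1 or 2 or A549_SR11302 replicate 2. Liver and gut-like genes lost it without A549_NT replicate 1 or 2 or A549_SR11302 replicate 1. Interferon-stimulated genes lost it without A549_NT replicate 1, and airway secretory genes without A549_NT replicate 1 or A549_SR11302 replicate 1. Collagen chains and integrins were called higher more often than lower, and genes of DNA replication were lower or not called. The difference between the responses of A549 and B2B was tested for each gene. By this test 15.8% of genes were called, 8.34% with a higher and 7.41% with a lower response in A549. A difference that did not pass does not show that the lines shared a response. Since RNA was taken from whole cultures, fewer cells of a kind and less RNA per cell cannot be told apart. Most genes named below were picked because they were called, so the separation of their treated and untreated libraries follows largely from that choice. It is given as description and not as added support, and the share of all genes so separated is not given.

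**Figure D1:**
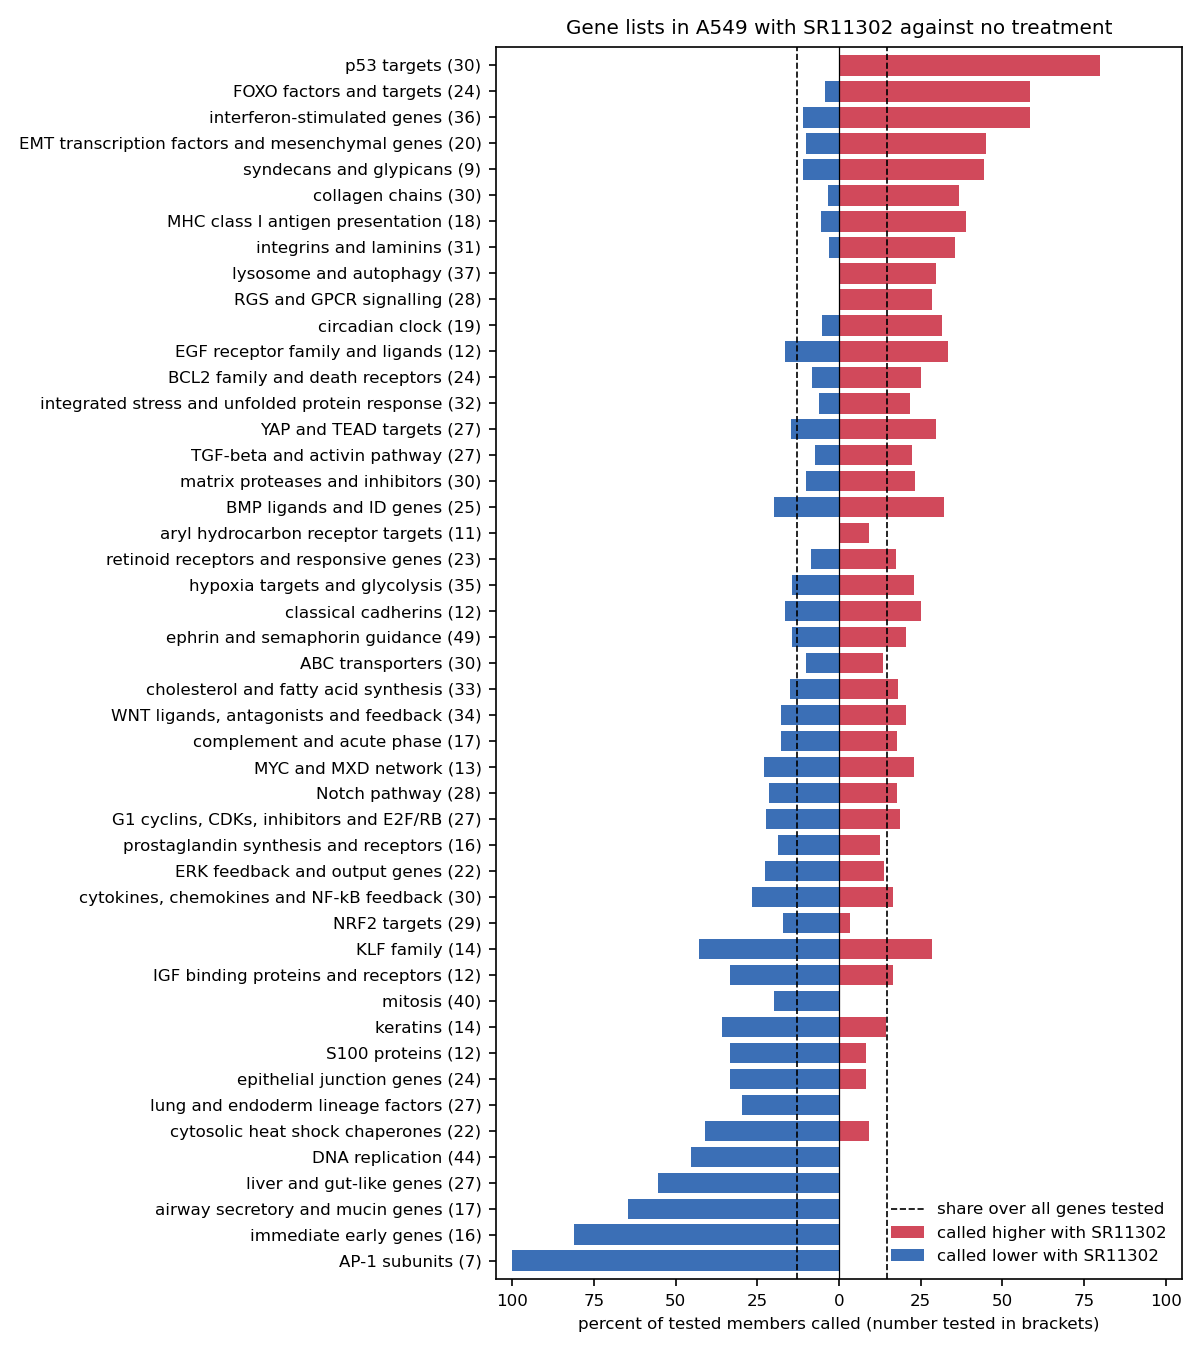
Percent of the tested members of each gene list called higher (red, to the right) and lower (blue, to the left) in A549 with SR11302, with the number tested in brackets and dashed lines at the shares over all genes (14.8% and 13%). The lists of p53 targets (24 of 30), interferon-stimulated genes (21 of 36) and FOXO factors and targets (14 of 24) reach furthest to the right, and AP-1 subunits (7 of 7) and immediate early genes (13 of 16) furthest to the left.

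Immediate early genes were lower in A549 under SR11302. Of the 16 tested members, 13 were called lower and 0 higher, where 13% of all genes were called lower, and their median log2 fold change was -1.42. EGR1, a zinc finger factor that serum and growth factors induce (chromosome 5, 138465479 to 138469303, hg38), stood at 516 and 479 CPM in A549_NT and 71.8 and 103 CPM in A549_SR11302, a log2 fold change of -2.50 ± 0.17, adjusted p = 2.17e-07. Its relatives EGR2 and EGR3 were lower as well, at low levels, EGR3 from 2.28 and 1.17 to 0 and 0.167 CPM (-4.17 ± 0.76) and EGR2 from 2.83 and 2.02 to 0.340 and 0.460 CPM (-2.57 ± 0.47). The orphan nuclear receptors of the NR4A family, which act without a known hormone, followed. NR4A1 (chromosome 12, 52022832 to 52059507) went from 359.8 and 308 to 42.9 and 48.9 CPM (-2.86 ± 0.15, adjusted p = 1.49e-08), NR4A2 from 52.8 and 49.8 to 8.45 and 11.9 CPM (-2.33 ± 0.20) and NR4A3 from 9.06 and 9.72 to 4.56 and 4.64 CPM (-1.03 ± 0.20). ZFP36, a protein that speeds the decay of mRNAs with AU-rich elements, went from 174 and 162 to 45.4 and 52.2 CPM (-1.78 ± 0.11). The treated and untreated libraries did not overlap for any of these genes, and both treated libraries lay below both untreated ones. Other falls were those of IER2 (-1.66 ± 0.12), KLF4 (-1.17 ± 0.17), KLF10 (-0.96 ± 0.11) and IER3 (-0.82 ± 0.11), and that of KLF2 is given with its family. SRF, the factor that drives many of them, was itself lower, from 68.5 and 62.2 to 43.9 and 39.0 CPM (-0.66 ± 0.11), and just under the fold minimum after GC correction (-0.49). The members that did not pass were MCL1 at -0.46 ± 0.13 and ATF3 at -0.40 ± 0.13, which missed the fold minimum, and IER5 at -0.07 ± 0.11.

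All 7 AP-1 subunits were called lower, with a median of -0.97. FOSB changed most (-4.78 ± 0.16), from 255 and 279.9 to 8.16 and 11.2 CPM, and JUN least (-0.61 ± 0.12), from 119.9 and 124 to 82.6 and 77.8 CPM, with -0.49 when libraries were scaled by size alone. FOSL1, which encodes FRA1, varied between the treated libraries, with 178 and 174 CPM in A549_NT and 67.1 and 29.8 CPM in A549_SR11302 (-1.87 ± 0.25). JUND fell by less than the fold minimum once the GC content of genes was corrected for (-0.33 in place of -0.75), and FOSL2 without A549_SR11302 replicate 2 (-0.48 in place of -0.62).

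Promoters of the early genes that were called lower are shown because the factors that drive these genes read short sites near their start. A RefSeq promoter (GRCh38.p14, 250 bases before to 50 after the start) was at hand for 15 of the 20 immediate early and AP-1 genes called lower, and 5 of the 15 genes held one of the motifs searched on both strands. These were the AP-1 site TGANTCA, the cAMP response element TGACGTCA and the CArG box bound by SRF, of which none contains another. The CArG box was found in EGR1, SRF and EGR2, TGANTCA in FOSL2 and TGACGTCA in JUND. Counted by promoter, 3 of the 19 promoters of these genes held a CArG box, 1 TGANTCA and 1 TGACGTCA. Over all 35116 promoters of this length, 1.29% held a CArG box, 7.71% TGANTCA and 1.85% TGACGTCA. Over the 16936 promoters of genes tested, the shares were 1.13%, 5.57% and 2.61%. A CArG box was found in 1.58% of promoters of genes called higher and 1.54% of those called lower. Early genes are known for control by SRF, so their share of CArG boxes is no result about SR11302. Sites outside this window were not searched. Capitals mark the matches, and each sequence runs 5′ to 3′ on the strand of its gene. EGR1 lies at chr5:138465229-138465528 on the plus strand, SRF at chr6:43171019-43171318 (plus), JUND at chr19:18281573-18281872 (minus) and FOSL2 at chr2:28392608-28392907 (plus). FOSB, at chr19:45467746-45468045 (plus), is given as the early gene with the largest fall and holds none of these letters in this window.
EGR1: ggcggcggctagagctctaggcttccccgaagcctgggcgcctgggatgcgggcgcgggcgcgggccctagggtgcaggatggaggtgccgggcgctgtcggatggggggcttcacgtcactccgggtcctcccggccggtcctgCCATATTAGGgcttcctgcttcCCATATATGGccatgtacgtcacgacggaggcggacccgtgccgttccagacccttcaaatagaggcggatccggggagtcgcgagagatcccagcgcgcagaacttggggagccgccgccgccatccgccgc
SRF: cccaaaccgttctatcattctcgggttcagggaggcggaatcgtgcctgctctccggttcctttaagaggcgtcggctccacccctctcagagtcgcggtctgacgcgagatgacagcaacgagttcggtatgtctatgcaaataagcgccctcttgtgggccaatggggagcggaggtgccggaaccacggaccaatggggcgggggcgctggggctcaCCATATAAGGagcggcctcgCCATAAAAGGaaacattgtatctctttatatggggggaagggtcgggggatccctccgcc
JUND: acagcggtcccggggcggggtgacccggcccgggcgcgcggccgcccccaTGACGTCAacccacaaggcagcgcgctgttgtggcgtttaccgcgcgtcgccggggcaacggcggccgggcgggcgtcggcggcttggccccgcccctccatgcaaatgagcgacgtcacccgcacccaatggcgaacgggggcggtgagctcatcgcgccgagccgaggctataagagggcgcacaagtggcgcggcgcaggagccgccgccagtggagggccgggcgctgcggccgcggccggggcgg
FOSL2: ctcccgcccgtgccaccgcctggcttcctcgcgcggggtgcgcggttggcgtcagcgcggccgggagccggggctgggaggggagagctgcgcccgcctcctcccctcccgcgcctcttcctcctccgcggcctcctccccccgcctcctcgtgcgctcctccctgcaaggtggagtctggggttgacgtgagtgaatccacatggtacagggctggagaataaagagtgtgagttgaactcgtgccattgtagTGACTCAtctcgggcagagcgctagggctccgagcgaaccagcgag
FOSB: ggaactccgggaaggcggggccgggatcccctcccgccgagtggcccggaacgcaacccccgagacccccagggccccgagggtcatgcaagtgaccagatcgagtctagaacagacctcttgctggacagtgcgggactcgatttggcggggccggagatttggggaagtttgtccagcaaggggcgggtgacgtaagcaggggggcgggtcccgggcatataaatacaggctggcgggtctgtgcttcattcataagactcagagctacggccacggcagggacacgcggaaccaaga

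**Figure D2:**
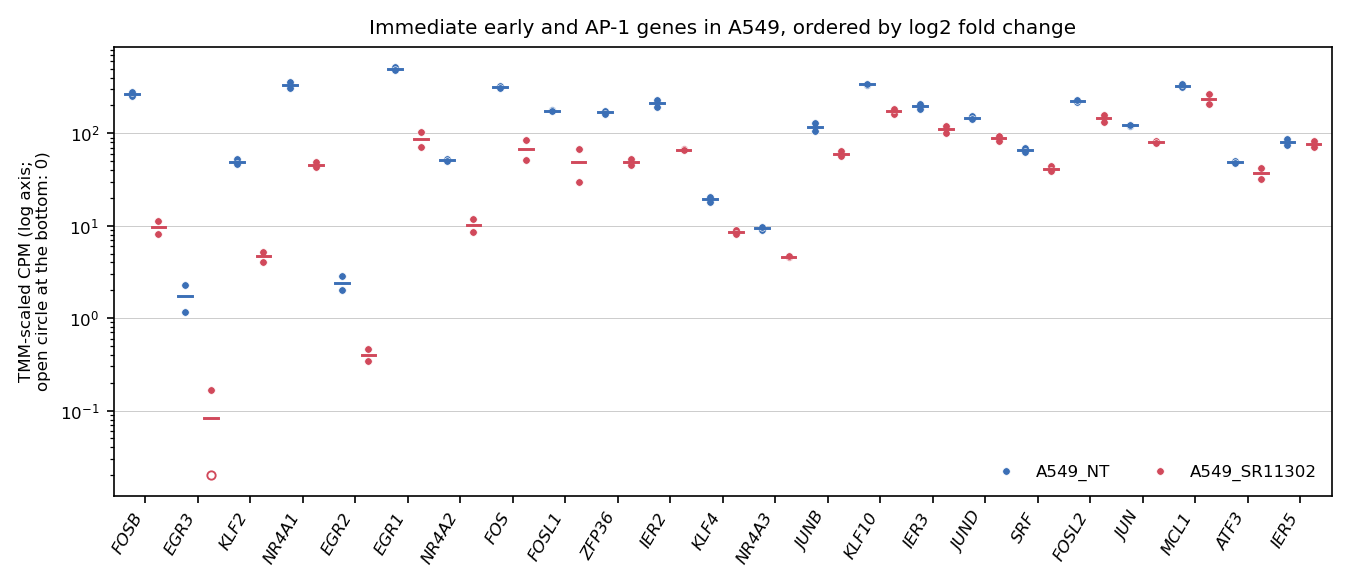
TMM-scaled CPM (log axis) of each tested immediate early and AP-1 gene in the 2 A549_NT libraries (blue) and the 2 A549_SR11302 libraries (red), ordered by log2 fold change, with lines at the means and an open circle at the bottom for a count of 0. FOSB drops from 255 and 279.9 to 8.16 and 11.2 CPM at the left, and IER5 at the right overlaps between the groups.

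In B2B the same dose left these genes at a median log2 fold change of 0.17. The response of A549 was called lower than that of B2B for 11 of the 16 immediate early genes and higher for 0, against 7.41% of all genes called lower. EGR1 stood at 263 and 262 CPM in B2B_NT and 296 and 274 CPM in B2B_SR11302, a change of 0.12 ± 0.16 there, and the difference between the lines was -2.62 ± 0.23, adjusted p = 7.74e-06. NR4A1 was higher with SR11302 in B2B (6.13 and 8.10 CPM in B2B_NT and 10.3 and 11.4 CPM in B2B_SR11302, 0.60 ± 0.17) and lower in A549, a difference of -3.46 ± 0.22, adjusted p = 8.12e-07. FOSB was lower in both lines, by less in B2B (-1.13 ± 0.22), with a difference of -3.66 ± 0.28.

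Feedback genes of ERK signalling were mixed. Of 22 tested members 5 were called lower and 3 higher, with a median of -0.24 (4 and 1 without A549_NT replicate 1, 6 and 2, median -0.15, without A549_NT replicate 2, 6 and 5, median -0.15, without A549_SR11302 replicate 1, 5 and 1 without A549_SR11302 replicate 2). DUSP8, a phosphatase of JNK and p38 kinases, went from 23 and 19.1 to 9.23 and 7.32 CPM (-1.35 ± 0.17), and DUSP4, which acts on nuclear ERK, from 368 and 351 to 173 and 210.0 CPM (-0.91 ± 0.10). SPRY4, an inhibitor of receptor tyrosine kinase signalling, went from 30.1 and 31.0 to 14.7 and 17.7 CPM (-0.92 ± 0.13). Cyclin D1, encoded by CCND1, did not pass the test at -0.25 ± 0.10.

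In the EGF receptor family, 4 of 12 tested members were called higher and 2 lower (4 and 1 without A549_NT replicate 2). The receptor gene EGFR (chromosome 7, 55019017 to 55211628) rose from 159.7 and 200.5 to 293 and 287 CPM (0.69 ± 0.11, adjusted p = 0.000375). Of the ligands, TGFA was higher, from 21.1 and 25.1 to 41.6 and 49.4 CPM (0.98 ± 0.15), as was NRG1, from 87.4 and 101 to 182 and 144 CPM (0.79 ± 0.14), while amphiregulin (AREG) was lower, from 123 and 109.6 to 33.4 and 24.9 CPM (-1.99 ± 0.14, adjusted p = 4.14e-07). Both treated libraries lay outside the range of the untreated ones for each of these genes. Epiregulin (EREG) was at -0.71 ± 0.23 and lost its call without A549_NT replicate 2 (-0.55), with scaling by library size alone (-0.59) and by DESeq2 (-0.71). EGF itself was low, 0.222 and 0.584 CPM without and 1.07 and 2.68 CPM with SR11302 (2.21 ± 0.62), and lost its call without A549_NT replicate 1 (1.69) or A549_SR11302 replicate 2 (1.4). The members that did not pass were the receptors ERBB2 (0.09 ± 0.11) and ERBB3 (-0.32 ± 0.11), the ligands HBEGF (0.14 ± 0.18), BTC (-0.13 ± 0.45) and EPGN (0.35 ± 0.70), and the feedback inhibitor ERRFI1 (-0.12 ± 0.12). In B2B, EGFR, TGFA and AREG changed by 0.15, -0.04 and -0.57, and each line difference passed (0.53, 1.02 and -1.42).

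Targets of p53 were higher in A549, with 24 of 30 tested members called higher and 0 lower, where 14.8% of all genes were called higher. Their median log2 fold change was 0.82, and -0.13 in B2B. SPATA18, which acts in the quality control of mitochondria (chromosome 4, 52051304 to 52097299), rose from 3.28 and 3.13 to 16.8 and 25.2 CPM (2.71 ± 0.23, adjusted p = 1.88e-06), and BTG2, which slows cell division, from 11.3 and 10.6 to 34.5 and 31.0 CPM (1.58 ± 0.13, adjusted p = 1.93e-06). SESN2, a sestrin that restrains the growth kinase mTORC1, went from 9.17 and 8.55 to 28.7 and 22.1 CPM (1.52 ± 0.15). The cell cycle inhibitor CDKN1A (p21) went from 117 and 109.6 to 369.7 and 319 CPM (1.60 ± 0.11). Treated libraries were above untreated ones in all 4 cases. MDM2, the ubiquitin ligase that p53 induces and that degrades it, stood at 204 and 239 CPM in A549_NT and 319 and 479 CPM in A549_SR11302 (0.85 ± 0.17), with the treated libraries wider apart than the untreated ones. The response of A549 was called higher than that of B2B for 19 of the 30 targets and lower for 0, against 8.34% of all genes called higher. For SPATA18 the B2B libraries showed 2.20 and 2.12 CPM in B2B_NT and 1.69 and 2.25 CPM in B2B_SR11302, and the difference between lines was 2.86 ± 0.37, adjusted p = 0.000177.

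Of 24 tested BCL2 family members and death receptors, 6 were called higher and 2 lower (4 and 2 without A549_NT replicate 2, 3 and 3 without A549_SR11302 replicate 1, 6 and 5 without A549_SR11302 replicate 2). The pro-death BH3 protein BMF rose from 0.834 and 0.796 to 4.47 and 6.02 CPM (2.68 ± 0.27, adjusted p = 8.91e-06), PMAIP1 (NOXA) from 7.50 and 10.9 to 20.2 and 29.6 CPM (1.43 ± 0.24) and the death receptor FAS from 10.8 and 11.6 to 27.0 and 36.8 CPM (1.51 ± 0.19). BIRC3, an inhibitor of cell death that NF-kB induces, was lower, from 69.5 and 86.0 to 35.2 and 41.0 CPM (-1.03 ± 0.13), and so was BOK, a BAX relative, from 40.5 and 33.1 to 23 and 16 CPM (-0.92 ± 0.16). BMF and FAS did not pass in B2B (0.52 ± 0.22 and -0.12 ± 0.23), and the line difference passed for both (2.16 and 1.63).

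FOXO factors and their targets, genes of nutrient stress and quiescence, were also higher. Of 24 tested members 14 were called higher and 1 lower, with a median of 1.02 (10 and 1, median 0.41, without A549_SR11302 replicate 2). In B2B the median was 0.04. SESN3 (chromosome 11, 95165513 to 95232541) stood at 4.0 and 5.10 CPM in A549_NT and 31.4 and 69.4 CPM in A549_SR11302 (3.47 ± 0.35, adjusted p = 8.86e-06). In B2B it rose as well, with 0.383 and 0.489 CPM in B2B_NT and 14.4 and 10.5 CPM in B2B_SR11302 (4.81 ± 0.50), and the line difference did not pass (-1.34 ± 0.69, adjusted p = 0.202). ARRDC4, an arrestin that limits glucose uptake, went from 1.39 and 2.02 to 6.75 and 14.5 CPM (2.64 ± 0.34), and KLHL24, an adaptor for protein breakdown, from 2.67 and 2.65 to 7.72 and 21.3 CPM (2.46 ± 0.37). CCNG2, a cyclin of resting cells, went from 2.39 and 3.77 to 6.6 and 17.7 CPM (1.988 ± 0.37). In each of these genes A549_SR11302 replicate 2 was higher than replicate 1, and replicate 1 was still above both untreated libraries. PIK3IP1, an inhibitor of PI3 kinase, was at 2.19 ± 0.51 and lost its call without A549_NT replicate 1 (1.76) or A549_SR11302 replicate 2 (1.04). The insulin receptor substrate IRS2 was the member called lower, from 174 and 171 to 64.2 and 84.7 CPM (-1.21 ± 0.12, adjusted p = 8.04e-06). ARRDC4 was lower in B2B (-1.10 ± 0.26), a line difference of 3.74 ± 0.43, adjusted p = 6.91e-05.

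Genes of DNA replication were lower. Of 44 tested members 20 were called lower and 0 higher, with a median of -0.42, and 12 were called lower without A549_SR11302 replicate 2. CLSPN, the checkpoint adaptor claspin (chromosome 1, 35720218 to 35769978), went from 136 and 134 to 52.8 and 43.5 CPM (-1.49 ± 0.12, adjusted p = 9.53e-07). RRM2, a subunit of ribonucleotide reductase, went from 606 and 634 to 329 and 284 CPM (-1.02 ± 0.14), and the licensing factor CDT1 from 78.1 and 73.6 to 51.7 and 34.1 CPM (-0.83 ± 0.16). UHRF1, which keeps DNA methylation through replication, was at -1.66 ± 0.16, and of its transcript windows only 56.9% were unique in the genome. In all 4 genes A549_SR11302 replicates lay below both A549_NT libraries. The A549 response was called lower than that of B2B, where the median was 0.11, for 22 members and higher for 0, a count of 12 without B2B_NT replicate 1, 13 without A549_NT replicate 1 or B2B_NT replicate 2, 14 without B2B_SR11302 replicate 2 and 34 without A549_SR11302 replicate 1. RRM2 in B2B was at 463 and 466 CPM in B2B_NT and 486 and 433 CPM in B2B_SR11302 (-0.02 ± 0.14), a line difference of -1.0 ± 0.20, adjusted p = 0.00408.

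In the list of G1 cyclins, kinases, inhibitors and E2F factors, 5 of 27 were called higher and 6 lower (3 and 6 without A549_NT replicate 1, 4 and 3 without A549_SR11302 replicate 2). E2F8, a repressor of the E2F family, went from 34.9 and 37.8 to 17.3 and 15.2 CPM (-1.16 ± 0.12), and the pocket protein RBL1 from 67.8 and 82.5 to 39.3 and 42.7 CPM (-0.87 ± 0.12), while RBL2, the pocket protein of resting cells, was higher, from 37.5 and 45.9 to 63.7 and 80.1 CPM (0.79 ± 0.13). Cyclin D2 (CCND2) went from 2 counts over both untreated libraries to 59 over both treated ones, a ratio of 24.4 with a 95% counting interval of 6.47 to 206. Of 40 mitosis genes 8 were called lower and 0 higher, a count that was 4 without A549_NT replicate 1 or with scaling by library size alone, 5 without A549_SR11302 replicate 2 or with unique windows only, and 15 without A549_SR11302 replicate 1. UBE2C, which marks proteins for destruction in mitosis, was at -0.86 ± 0.17 and SPC25, a kinetochore subunit, at -0.82 ± 0.13. CDC20 was at -0.72 ± 0.20 and lost its call without A549_NT replicate 1 (-0.65) or A549_SR11302 replicate 2 (-0.31). The proliferation marker MKI67 did not pass (-0.27 ± 0.13, with 1132 and 1285 CPM in A549_NT and 1145 and 866 CPM in A549_SR11302). In the MYC network, 3 of 13 were called higher and 3 lower. MYCN went from 42 counts to 2, a ratio of 25.4 (6.6 to 216), and MXD4, a repressor that competes with MYC for its partner MAX, rose from 17.1 and 12.6 to 38.6 and 39.3 CPM (1.4 ± 0.15).

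Interferon-stimulated genes were higher on balance. Of 36 tested members 21 were called higher and 4 lower, with a median log2 fold change of 0.80. TRIM22, an antiviral ubiquitin ligase, rose from 0.889 and 0.637 to 7.53 and 15.7 CPM (3.93 ± 0.35), and SAMD9, a sensor that blocks translation of viral and own mRNAs (chromosome 7, 93099513 to 93118023), from 6.89 and 7.38 to 29.3 and 52.4 CPM (2.52 ± 0.23, adjusted p = 3.49e-06). IFIT1, which binds foreign RNA caps, went from 1.11 and 2.34 to 7.62 and 8.87 CPM (2.25 ± 0.28), and the ubiquitin-like ISG15 from 1.06 and 0.690 to 4.95 and 4.52 CPM (2.43 ± 0.33). For these 4 genes both treated libraries were above both untreated ones. RSAD2 (viperin) and IFI44 had 0 counts in A549_NT and 23 and 24 counts over both treated libraries, which makes them at least 6.35-fold and at least 6.62-fold higher against the limit of 3 counts over the group. RSAD2 lost its call without A549_NT replicate 1 or 2 and by DESeq2. The members called lower were ISG20 (-1.34 ± 0.23), IRF7 (-1.27 ± 0.23), OAS3 (-0.86 ± 0.12) and OAS1 (-0.59 ± 0.13), the last of which lost its call without A549_SR11302 replicate 2 (-0.40) or with scaling by library size alone (-0.47).

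In B2B 16 of these genes were called higher and 0 lower, against 11.4% and 11.1% of all genes, with a median of 0.60. The line difference was called for 6 members with the higher response in A549, among them TRIM22 (4.08), SAMD9 (1.95) and ISG15 (2.16), and for the 4 that were lower in A549 (9 and 4 without A549_SR11302 replicate 1, and 5 and 2 without B2B_NT replicate 1). IFIH1, a sensor of double-stranded RNA, rose in both lines, by 1.48 ± 0.29 in A549 and 2.17 ± 0.31 in B2B, and its line difference did not pass (-0.68 ± 0.43, adjusted p = 0.301).

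Antigen presentation by MHC class I showed 7 of 18 genes called higher and 1 lower. PSMB8, an immunoproteasome subunit (chromosome 6, 32840717 to 32844679), rose from 6.56 and 5.73 to 22.0 and 18.0 CPM (1.70 ± 0.15, adjusted p = 2.36e-06), the class I gene HLA-B from 14.6 and 14.4 to 40.9 and 36.8 CPM (1.42 ± 0.12) and ERAP2, which trims peptides, from 2.0 and 3.19 to 5.34 and 8.12 CPM (1.38 ± 0.25). HLA genes resemble one another, so reads of HLA-B may be split with its relatives. PDIA3, a chaperone of class I assembly, was lower, from 333 and 317 to 181 and 189.8 CPM (-0.81 ± 0.09).

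Cytokine and chemokine genes and feedback genes of NF-kB, the factor of inflammation, went both ways, with 8 of 30 called lower and 5 higher (7 and 2 without A549_NT replicate 2). LIF, a cytokine of the interleukin 6 family (chromosome 22, 30240453 to 30246759), went from 275 and 262 to 137 and 128 CPM (-1.02 ± 0.11, adjusted p = 9.69e-06). Among the neutrophil chemokines, CXCL2 went from 17.1 and 17.8 to 7.82 and 7.03 CPM (-1.23 ± 0.22), CXCL3 from 3.78 and 3.5 to 1.31 and 1.34 CPM (-1.45 ± 0.28) and CXCL5 from 63.3 and 70.6 to 23.1 and 42.2 CPM (-1.03 ± 0.22). IL6 itself had 1 count in A549_NT and 36 in A549_SR11302, a ratio of 29.8 with an interval of 5.02 to 1209. CXCL2 and CXCL3 are close copies, with 86.3% and 94.0% unique windows.

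Complement genes were split as well, with 3 of 17 called higher and 3 lower (5 and 2 without A549_SR11302 replicate 1). The central component C3 rose from 33.9 and 32.4 to 111 and 135 CPM (1.89 ± 0.15, adjusted p = 1.30e-06), and the proteases that start the classical pathway, C1R and C1S, went from 15.2 and 15.7 to 43.7 and 45.5 CPM (1.53 ± 0.12) and from 57.2 and 50.6 to 129 and 132 CPM (1.27 ± 0.11). Treated libraries were above untreated ones for all 3 genes. The protease CFD of the alternative pathway was lower, from 32.1 and 23.2 to 10.0 and 7.28 CPM (-1.68 ± 0.22), as was LCN2, an acute phase protein that binds iron carriers (-1.55 ± 0.34). C1R and C1S rose in B2B too (1.82 ± 0.12 and 1.81 ± 0.14), where C3 was lower (-1.72 ± 0.20), a line difference of 3.61 ± 0.25, adjusted p = 1.39e-06 for C3.

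In prostaglandin synthesis, the inducible cyclooxygenase PTGS2 was lower and the prostaglandin E synthase PTGES higher. PTGS2 stood at 83.0 and 91.2 CPM in A549_NT and 17.9 and 48.8 CPM in A549_SR11302 (-1.38 ± 0.33), with the treated libraries far apart, and DESeq2 made no call (-1.38). PTGES went from 12.7 and 13.6 to 36.4 and 41.8 CPM (1.57 ± 0.17) and rose in B2B as well (2.02 ± 0.23). Of 16 tested genes of this list 2 were called higher and 3 lower (2 and 5 without A549_SR11302 replicate 2).

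Collagen chains were called higher in 11 of 30 cases and lower in 1, with a median of 0.66 in A549 and of -0.42 in B2B. COL5A1, a chain of fibril collagen V (chromosome 9, 134641803 to 134844843), went from 18.3 and 18.7 to 83.3 and 75.6 CPM (2.10 ± 0.11), and COL11A1, its relative in collagen XI, from 0.445 and 0.319 to 3.98 and 5.56 CPM (3.63 ± 0.35). The basement membrane chains COL4A5 and COL4A6 went from 35.9 and 48.1 to 88.3 and 126 CPM (1.35 ± 0.17) and from 22.4 and 24.1 to 49.9 and 58.4 CPM (1.22 ± 0.13). COL6A2, of the beaded collagen VI, went from 7.39 and 6.48 to 17.5 and 20.3 CPM (1.45 ± 0.17). COL5A3 was the chain called lower, from 2.72 and 2.39 to 1.07 and 1.05 CPM (-1.27 ± 0.24). In B2B 12 chains were called lower and 2 higher, and the A549 response was called higher for 15 of 30 chains and lower for 1. COL6A2 is an example, with 32.3 and 33.6 CPM in B2B_NT and 11.1 and 15.1 CPM in B2B_SR11302 (-1.34 ± 0.16) and a line difference of 2.78 ± 0.23, adjusted p = 4.30e-06. COL4A1, which was named after its values were seen, rose in A549 (0.95 ± 0.13) and fell in B2B (-1.93 ± 0.13).

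Integrins and laminins were called higher in 11 of 31 cases and lower in 1. ITGB8, which frees TGF-beta from its latent form, went from 1.39 and 2.18 to 4.32 and 9.54 CPM (1.96 ± 0.35), and ITGA10 and ITGA11, collagen receptors, from 1.33 and 0.903 to 3.64 and 4.31 CPM (1.83 ± 0.29) and from 0.889 and 0.531 to 2.33 and 5.48 CPM (2.47 ± 0.42). The laminin chain LAMA4 went from 0.222 and 0 to 2.96 and 3.72 CPM (4.87 ± 0.56), and LAMA1 from 3 counts to 40, a ratio of 11 (3.51 to 55.8). ITGB4, the hemidesmosome subunit, was the member called lower. It was outside the 6 members with the largest change and was named as the only call in its direction, from 398 and 356 to 219 and 220.4 CPM (-0.78 ± 0.11), and it was higher with SR11302 in B2B (0.88 ± 0.11).

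Of 9 tested syndecans and glypicans, the proteoglycans of the cell surface, 4 were called higher and 1 lower. SDC2 (syndecan 2) went from 0.889 and 0.956 to 17.9 and 22.6 CPM (4.45 ± 0.19), while SDC1, the main syndecan of epithelia, was lower, from 408 and 363 to 272 and 224 CPM (-0.64 ± 0.11), below the fold minimum without A549_SR11302 replicate 2 (-0.48) or after GC correction (-0.49). Glypican GPC4 went from 3 counts to 89, a ratio of 24.6 (8.13 to 121), and GPC3 from 0 to 46, at least 12.7-fold higher. In B2B, SDC2 stood at 79.2 and 77.6 CPM in B2B_NT and 74.3 and 66.6 CPM in B2B_SR11302 (-0.15 ± 0.12), a line difference of 4.60 ± 0.23, adjusted p = 1.18e-07.

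Among matrix proteases and inhibitors 7 of 30 were called higher and 3 lower (8 and 5 without A549_SR11302 replicate 1). The gelatinase MMP2 (chromosome 16, 55389700 to 55506691) rose from 0.611 and 0.319 to 8.74 and 9.71 CPM (4.30 ± 0.25, adjusted p = 4.81e-08), its inhibitor TIMP3 from 0.278 and 0.265 to 4.27 and 5.61 CPM (4.16 ± 0.36) and ADAMTS1, a protease of proteoglycans, from 0.834 and 1.33 to 9.13 and 8.33 CPM (3.0 ± 0.26). SERPINE2, an inhibitor of serine proteases, went from 27.2 and 25.5 to 47.4 and 72.8 CPM (1.19 ± 0.18). Both treated libraries lay above both untreated ones for these 4 genes. ADAMTS9 was lower, from 63.5 and 70.9 to 30.4 and 28.2 CPM (-1.20 ± 0.20). MMP2 and TIMP3 were also called higher in B2B (0.82 ± 0.16 and 2.25 ± 0.19), by less than in A549 (line differences 3.49 ± 0.31, adjusted p = 9.40e-06 and 1.91 ± 0.46, adjusted p = 0.0128).

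**Figure D3:**
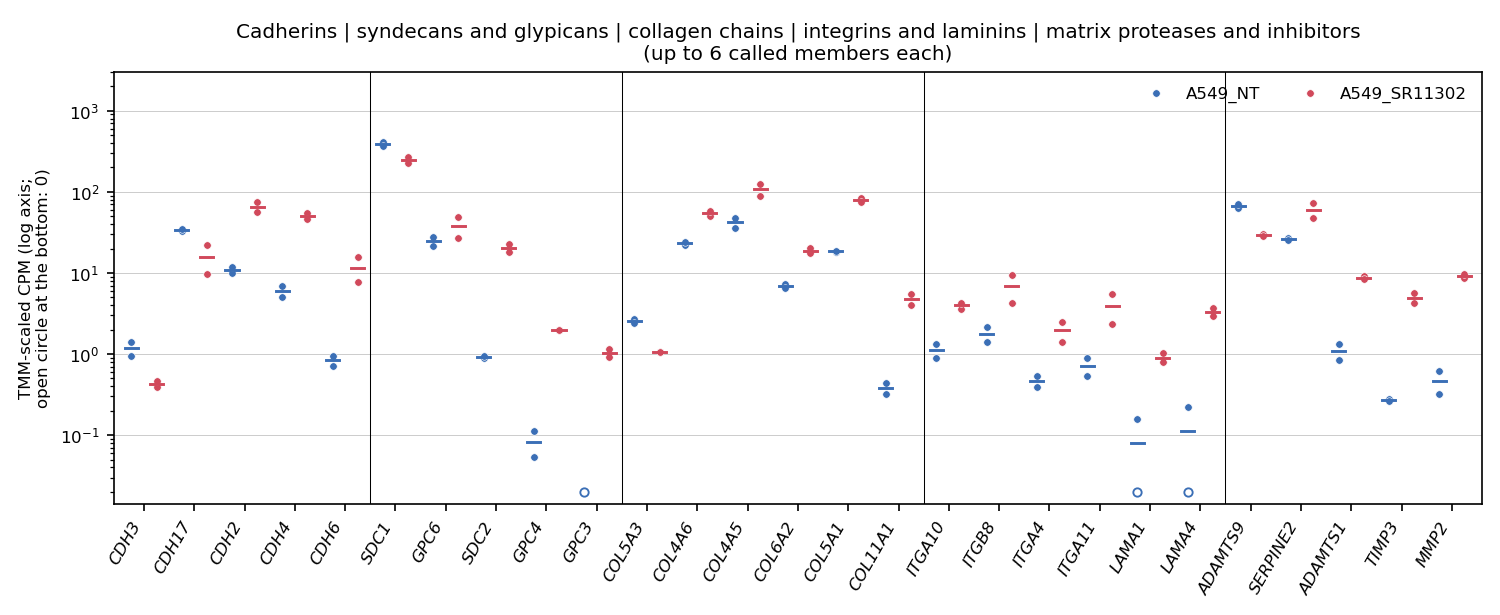
TMM-scaled CPM (log axis) of up to 6 called members of each of the cadherins, syndecans and glypicans, collagen chains, integrins and laminins, and matrix proteases and inhibitors, in the 2 A549_NT (blue) and 2 A549_SR11302 libraries (red), with lines at the means and an open circle at the bottom for a count of 0. MMP2 rises from 0.611 and 0.319 to 8.74 and 9.71 CPM, and SDC1, COL5A3, CDH3, CDH17 and ADAMTS9 are the genes with lower treated libraries.

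Cadherins, the calcium-dependent adhesion proteins of cell contacts, were called higher for 3 of 12 tested members and lower for 2. N-cadherin (CDH2) went from 10.0 and 11.9 to 56.8 and 74.5 CPM (2.58 ± 0.15), CDH4 (R-cadherin) from 6.95 and 5.04 to 55.4 and 46.3 CPM (3.08 ± 0.18, adjusted p = 5.05e-08) and CDH6 (K-cadherin) from 0.723 and 0.956 to 7.72 and 15.6 CPM (3.79 ± 0.38). E-cadherin, encoded by CDH1, did not pass and stayed at 122 and 128 CPM in A549_NT and 97.0 and 115 CPM in A549_SR11302 (-0.24 ± 0.18). CDH17, the cadherin of liver and gut, was lower, from 32.8 and 35.0 to 9.81 and 22.0 CPM (-1.08 ± 0.26), and CDH3 (P-cadherin) was at -1.44 ± 0.35 and lost its call without A549_NT replicate 1 (-1.15). CDH24 was at -0.15 ± 0.13, CDH11 at -0.59 ± 0.35 and CDH16 at -0.65 ± 0.52, none of which passed. CDH5, CDH10 and CDH13 were at or under 0.265 CPM in each A549_NT and A549_SR11302 library. In B2B, CDH2 and CDH4 changed by -0.35 ± 0.13 and -0.35 ± 0.15, and the line differences were 2.93 ± 0.19, adjusted p = 9.97e-07 for CDH2 and 3.43 ± 0.24, adjusted p = 1.39e-06 for CDH4.

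In the list of EMT factors and mesenchymal genes, 9 of 20 were called higher and 2 lower, with a median of 0.69 (9 and 4, median 0.42, without A549_SR11302 replicate 1). The median in B2B was -0.34, and the A549 response was called higher than that of B2B for 9 and lower for 0. Its members moved in opposite directions. TCF4 went from 3.22 and 4.19 to 12.3 and 16.2 CPM (1.94 ± 0.20) and ZEB2, a repressor of epithelial genes, from 3.72 and 5.31 to 9.27 and 14.4 CPM (1.39 ± 0.22), while SNAI1, a repressor of the same kind, was lower, from 14.5 and 12.3 to 6.36 and 5.15 CPM (-1.22 ± 0.18). Fibronectin (FN1), chosen after its values were seen, stood at 319 and 391 CPM in A549_NT and 623 and 1146 CPM in A549_SR11302 (1.32 ± 0.21). SPARC, a matrix protein that B2B expressed at 1014 to 2447 CPM, was at 0.333 and 7.06 CPM in A549_NT and 27.8 and 36.0 CPM in A549_SR11302 (3.09 ± 0.51). Its untreated level rests on A549_NT replicate 2, the library with counts of CDKN2A, and without that library the fold change was 6.55. As a percent of the mean B2B level, SPARC was at 0.0176 and 0.373% in A549_NT and at 1.47 and 1.90% in A549_SR11302.

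Epithelial junction genes were called lower in 8 of 24 cases and higher in 2 (7 and 1 without A549_NT replicate 1 or A549_SR11302 replicate 2, 5 and 3 without A549_NT replicate 2, 6 and 4 without A549_SR11302 replicate 1). The adhesion protein EPCAM went from 67.6 and 63.6 to 23.4 and 25.6 CPM (-1.42 ± 0.14), and the splicing factors of epithelia ESRP1 and ESRP2 from 5.84 and 5.15 to 1.07 and 2.38 CPM (-1.64 ± 0.32) and from 1.45 and 1.91 to 0.291 and 0.628 CPM (-1.83 ± 0.38). Claudin 2 (CLDN2), which forms pores for cations, stood at 189 and 176 CPM in A549_NT and 66.9 and 99.2 CPM in A549_SR11302 (-1.14 ± 0.26), and DESeq2 made no call (-1.14).

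Keratins were called lower in 5 of 14 cases and higher in 2 (5 and 1 without A549_NT replicate 1, 6 and 0 without A549_NT replicate 2 or A549_SR11302 replicate 1), and only 1 of those falls was in a gene with at least 95% unique windows. That gene was KRT19, from 7.06 and 6.74 to 3.79 and 3.35 CPM (-0.95 ± 0.24), which lost its call without A549_NT replicate 1 (-0.92). KRT86 went from 114 and 95.5 to 1.31 and 1.67 CPM (-6.12 ± 0.28) with 65.3% unique windows, and it is a near copy of KRT81, which did not pass (-0.53 ± 0.22). KRT8 and KRT18, the paired keratins of simple epithelia, went from 7149.7 and 6339 to 3597 and 3022 CPM (-1.03 ± 0.13) and from 6052 and 5115 to 2692 and 2213 CPM (-1.19 ± 0.13), with 86.5% and 87.5% unique windows.

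Airway secretory and mucin genes were mostly lower, with 11 of 17 tested members called lower, 0 higher and a median of -1.39. SPDEF, the factor that drives mucous cell genes (chromosome 6, 34537802 to 34556333), went from 17.2 and 15.8 to 1.991 and 2.43 CPM (-2.89 ± 0.28). The gel-forming mucins MUC5B and MUC5AC went from 793 and 752 to 24.6 and 51.9 CPM (-4.33 ± 0.42) and from 609.6 and 632 to 72.8 and 68.7 CPM (-3.13 ± 0.39), and they had 67.9% and 75.1% unique windows. CEACAM5 and CEACAM6, adhesion proteins of mucosal and tumour cells, went from 80.5 and 80.0 to 3.84 and 9.92 CPM (-3.53 ± 0.36) and from 380.4 and 386 to 44.6 and 64.6 CPM (-2.81 ± 0.34). AGR2, which folds mucins, was outside the 6 members with the largest change, from 85.1 and 79.1 to 25.7 and 36.1 CPM (-1.41 ± 0.21), and has unique windows only. Treated libraries lay below untreated ones for each of these genes. With genes of unique windows alone, and by DESeq2, 7 of the list were called lower, and MUC5AC and CEACAM6 were not called by DESeq2 (-3.13 and -2.81).

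Liver and gut-like genes, which A549 expresses beside its lung genes, were called lower in 15 of 27 cases and higher in 0, with a median of -0.87 (8 and 0 without A549_NT replicate 1, 12 and 2, median -0.45, without A549_SR11302 replicate 1). Neurotensin (NTS, chromosome 12, 85874295 to 85882992), a peptide hormone of the gut and brain, had the largest fall of the genes ranked. These had at least 95% unique windows and 10 CPM in the higher group, without unnamed loci, microRNAs, snoRNAs, pseudogenes or antisense genes. NTS went from 434 and 401 to 5.24 and 6.78 CPM (-6.11 ± 0.45, adjusted p = 1.08e-06). Villin (VIL1), which bundles actin in the brush border, went from 70.4 and 70.6 to 6.22 and 6.32 CPM (-3.49 ± 0.27, adjusted p = 7.71e-07), and TM4SF4, a tetraspanin-like membrane protein of liver and gut, from 179.9 and 183 to 29.7 and 35.4 CPM (-2.48 ± 0.27). The receptor subunit ASGR1 of hepatocytes went from 5.78 and 4.30 to 1.21 and 0.753 CPM (-2.37 ± 0.36). Both treated libraries lay below both untreated ones in all 4 genes, and TM4SF4 was not called by DESeq2 (-2.48). In B2B, NTS and TM4SF4 had their B2B counts mostly in untreated replicate 2, with 0 and 2.77 CPM in B2B_NT and 0 and 0 CPM in B2B_SR11302 for NTS, so the fitted B2B changes are not read here.

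Lineage factors of lung and endoderm had 8 of 27 members called lower and 0 higher, with a median of -0.19 (10 and 0, median -0.31, without A549_SR11302 replicate 2). HNF4A, the factor of hepatocytes and gut, went from 130.3 and 119.5 to 52.1 and 58.0 CPM (-1.18 ± 0.24), called by edgeR and not by DESeq2 (-1.18). TBX3 was at -0.64 ± 0.14 and SOX9, a factor of distal lung progenitors, at -0.75 ± 0.17, with no call without A549_SR11302 replicate 1 (-0.45). SOX21 was at -1.29 ± 0.34 and lost its call without A549_NT replicate 2 (-1.06).

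IGF binding proteins, which carry insulin-like growth factors and modulate their action, showed large and opposite changes. IGFBP7 (chromosome 4, 57030773 to 57110385) had the largest rise of the genes ranked, which had at least 95% unique windows and 10 CPM in the higher group. It went from 2.28 and 2.60 to 61.2 and 54.6 CPM (4.56 ± 0.15). In B2B it stood at 203 and 225 CPM in B2B_NT and 191 and 199.9 CPM in B2B_SR11302 (-0.13 ± 0.10), a line difference of 4.69 ± 0.18, adjusted p = 7.54e-09. IGFBP5 went from 2 counts to 64, a ratio of 26.5 (7.04 to 223). IGFBP1 was lower, from 28.9 and 29 to 8.11 and 13.6 CPM (-1.41 ± 0.21), as were IGFBP2, from 135 and 116 to 70.2 and 57.9 CPM (-0.97 ± 0.14), and IGFBP6, from 49.4 and 45.7 to 27.1 and 31.4 CPM (-0.70 ± 0.13), the last of which fell under the fold minimum after GC correction (-0.45). IGFBP3 (0.50 ± 0.12), IGFBP4 (-0.17 ± 0.12), the receptors IGF1R (0.07 ± 0.09), IGF2R (0.19 ± 0.09) and INSR (0.39 ± 0.13), and IRS1 (-0.17 ± 0.10) did not pass. With IRS2, which is given above, 2 of the 12 tested members were called higher and 4 lower.

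The TGF-beta and activin list had 6 of 27 members called higher and 2 lower. INHBA, the activin A chain, went from 0.778 and 0.956 to 1.94 and 3.18 CPM (1.56 ± 0.33), the ligand TGFB2 from 47.0 and 57.9 to 93.6 and 113 CPM (0.98 ± 0.17) and LTBP2, a latent TGF-beta binding protein, from 20.6 and 19.4 to 47.7 and 51.6 CPM (1.31 ± 0.14). In B2B 7 members were called lower and 0 higher, INHBA and TGFB2 among them (-2.36 ± 0.31 and -1.07 ± 0.16), and the A549 response was called higher for 7 members and lower for 0 (11 and 1 without A549_SR11302 replicate 1). In the list of BMP ligands and ID genes, 8 of 25 were called higher and 5 lower (6 and 2 without A549_NT replicate 1, 7 and 3 without A549_NT replicate 2, 9 and 3 without A549_SR11302 replicate 1). SMAD9, a carrier of the BMP signal, went from 2.45 and 2.28 to 6.65 and 9.08 CPM (1.74 ± 0.21) and the antagonist GREM1 from 0.0556 and 0.531 to 1.65 and 2.09 CPM (2.63 ± 0.51), while the modulator BMPER was lower, from 7.23 and 8.66 to 1.94 and 2.38 CPM (-1.87 ± 0.18).

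Of 34 tested WNT ligands, antagonists and feedback genes, 7 were called higher and 6 lower (7 and 9 without A549_SR11302 replicate 2). Among all genes 14.8% were called higher and 13% lower. WNT5A, a ligand of the beta-catenin independent branch (chromosome 3, 55465715 to 55490539), rose from 1.17 and 1.27 to 6.17 and 9.79 CPM (2.71 ± 0.26, adjusted p = 5.31e-06), and its coreceptor ROR2 from 0.556 and 0.265 to 1.41 and 1.13 CPM (1.61 ± 0.36). Secreted antagonists were also higher, DKK3 from 13.5 and 12.6 to 33.4 and 38.2 CPM (1.46 ± 0.12) and WIF1 from 0 counts to 26, at least 7.17-fold. Genes that were lower included TCF7, a factor and target of the beta-catenin branch, from 18.8 and 17.3 to 8.25 and 8.24 CPM (-1.13 ± 0.14), and the receptor FZD8, from 26.8 and 25 to 10.8 and 10.3 CPM (-1.29 ± 0.14). The ligases ZNRF3 and RNF43, which remove WNT receptors and are induced by the pathway, were outside the 6 largest changes and stood at -0.76 ± 0.11 and -0.70 ± 0.18.

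Notch pathway genes had 6 of 28 members called lower and 5 higher (4 and 4 without A549_NT replicate 1, 4 and 5 without A549_NT replicate 2, 4 and 7 without A549_SR11302 replicate 2). The shares over all genes were 13% lower and 14.8% higher. NOTCH3 (chromosome 19, 15159038 to 15200995) went from 225 and 194 to 54.8 and 60.7 CPM (-1.86 ± 0.14, adjusted p = 4.67e-07), and the target repressors HES1 and HES4 from 151 and 131 to 26 and 31.8 CPM (-2.28 ± 0.16, adjusted p = 3.43e-07) and from 24.3 and 18.2 to 6.65 and 4.18 CPM (-1.98 ± 0.22). The coactivator MAML2 was higher, from 4.67 and 6.58 to 9.91 and 13.1 CPM (1.03 ± 0.19). NOTCH3 and HES1 fell in B2B too (-1.79 ± 0.16 and -1.26 ± 0.16), and the fall of HES1 was larger in A549 (line difference -1.02 ± 0.22, adjusted p = 0.00676). For NOTCH3 the line difference did not pass (-0.06 ± 0.22, adjusted p = 0.877).

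YAP and TEAD targets had 8 of 27 members called higher and 4 lower (5 and 2 without A549_NT replicate 1, 7 and 6 without A549_SR11302 replicate 1, 7 and 2 without A549_SR11302 replicate 2). ANKRD1, a nuclear ankyrin protein that marks YAP activity, went from 24.1 and 23.4 to 91.2 and 78.5 CPM (1.84 ± 0.17, adjusted p = 3.32e-06), while F3, the tissue factor that starts blood clotting, was lower, from 8.67 and 10.1 to 2.14 and 2.59 CPM (-1.98 ± 0.16). ANKRD1 was lower in B2B (-1.05 ± 0.18), a line difference of 2.88 ± 0.25, adjusted p = 6.59e-06. Of 49 ephrin, semaphorin and plexin guidance genes 10 were called higher and 7 lower (10 and 3 without A549_NT replicate 1). Over all genes the shares were 14.8% and 13%. The receptor EPHA4 went from 2.22 and 2.50 to 7.19 and 9.58 CPM (1.83 ± 0.19) and the ligand EFNB3 from 0.445 and 0.850 to 2.28 and 3.77 CPM (2.22 ± 0.33), while the receptor EPHA1 was lower, from 1.61 and 1.43 to 0.146 and 0.293 CPM (-2.73 ± 0.50). SEMA3E, a repellent of vessels, went from 6.34 and 7.33 to 21.9 and 25.6 CPM (1.80 ± 0.17), and PLXNC1, a semaphorin receptor, was lower, from 7.45 and 9.29 to 2.86 and 2.13 CPM (-1.75 ± 0.20).

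Cholesterol and fatty acid synthesis separated the lines. In A549 6 of 33 genes were called higher and 5 lower (6 and 3 without A549_NT replicate 1, 8 and 3 without A549_SR11302 replicate 2), while in B2B 20 were called higher and 0 lower (median 0.69). The A549 response was called lower for 14 genes and higher for 0 (20 and 2 without A549_SR11302 replicate 1). HMGCS1, which makes the precursor of mevalonate, did not pass in A549 (287 and 314 CPM without and 301 and 273 CPM with SR11302, -0.07 ± 0.12) and rose in B2B (74.6 and 77.6 CPM in B2B_NT and 348 and 277 CPM in B2B_SR11302, 2.04 ± 0.13), a line difference of -2.11 ± 0.17, adjusted p = 4.30e-06. The factor SREBF1 was lower in A549, from 187 and 166 to 102 and 84.8 CPM (-0.91 ± 0.13). STARD4, a carrier of sterols, was higher, from 16.3 and 22.5 to 33.3 and 64.6 CPM (1.34 ± 0.26), and FDFT1, squalene synthase, from 80.5 and 82.2 to 149 and 128 CPM (0.77 ± 0.10).

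NRF2 targets, the detoxification genes that are constantly active in A549, had 5 of 29 members called lower and 1 higher, with a median of -0.27 (8 and 1, median -0.44, without A549_SR11302 replicate 1, 4 and 2 without A549_SR11302 replicate 2), against 0.26 in B2B. Among all genes 13% were called lower and 14.8% higher in A549. The A549 response was called lower for 9 and higher for 2, and leaving out 1 library gave 5 to 13 and 0 to 6, with 5 and 6 without B2B_NT replicate 1, 5 and 1 without A549_NT replicate 1, 13 and 5 without A549_SR11302 replicate 1 and 5 and 0 without B2B_SR11302 replicate 2. AKR1C1, an aldo-keto reductase with 63.9% unique windows, went from 618 and 531 to 176 and 231 CPM (-1.50 ± 0.27) and was not called by DESeq2 (-1.50). GPX2, a glutathione peroxidase of epithelia, went from 479 and 391 to 224 and 226 CPM (-0.95 ± 0.21). FTH1, the ferritin heavy chain (-1.68 ± 0.16), has many processed copies and 78.7% unique windows. NQO1 was at -0.35 ± 0.13 and did not pass the fold minimum in A549, while it was at 1.31 ± 0.13 in B2B, a line difference of -1.66 ± 0.18, adjusted p = 4.14e-05.

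Retinoid receptors and retinoid-responsive genes were listed apart. Of 23 tested retinoid receptors and responsive genes 4 were called higher and 2 lower (4 and 1 without A549_NT replicate 1, 3 and 1 without A549_NT replicate 2). The retinoic acid hydroxylase CYP26B1 (chromosome 2, 72129238 to 72147862) stood at 80.5 and 77.4 CPM in A549_NT and 136 and 199 CPM in A549_SR11302 (1.09 ± 0.15) and ALDH1A3, which makes retinoic acid, at 45.0 and 49.8 CPM in A549_NT and 99.7 and 90.2 CPM in A549_SR11302 (1.0 ± 0.11). The plasma carrier RBP4 was lower, from 6.39 and 5.73 to 1.12 and 1.21 CPM (-2.37 ± 0.26). RARRES3 (1.29 ± 0.41) lost its call without A549_NT replicate 2 (0.95) or A549_SR11302 replicate 1 (1.04). RDH10 (-0.56 ± 0.18) lost it without either A549_NT replicate (-0.57 and -0.54) or A549_SR11302 replicate 1 (-0.23), and with scaling by library size alone (-0.43). Of the other members, DHRS3 stood at 0.39 ± 0.12, under the fold minimum, STRA6 at -0.03 ± 0.17 and TGM2 at 0.03 ± 0.14. The receptors RARA (-0.40 ± 0.16), RARB (0.19 ± 0.16), RARG (0.08 ± 0.12), RXRA (-0.08 ± 0.10) and RXRB (0.27 ± 0.12) did not pass. Neither did CYP26A1 (-0.33 ± 0.32), the carriers CRABP1 (-0.41 ± 0.65) and CRABP2 (0.10 ± 0.24), the dehydrogenase DHRS9 (0.60 ± 0.36) or RARRES1 (-0.39 ± 0.36). LRAT, which esterifies retinol, had 3 counts without and 18 with treatment, a ratio of 4.97 (1.45 to 26.3), and did not pass. Of 11 targets of the aryl hydrocarbon receptor, 1 was called, the repressor AHRR, from 5.17 and 4.46 to 8.16 and 8.79 CPM (0.82 ± 0.14).

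Stress responses moved in part. In the integrated stress and unfolded protein response list, 7 of 32 were called higher and 2 lower (6 and 0 without A549_NT replicate 1, 8 and 1 without A549_NT replicate 2, 11 and 3 without A549_SR11302 replicate 1). NUPR1, a small stress protein (chromosome 16, 28532708 to 28539008), went from 2.39 and 1.91 to 25.7 and 27.4 CPM (3.63 ± 0.30, adjusted p = 1.47e-06), CHAC1, which degrades glutathione, from 0.500 and 0.372 to 3.98 and 5.10 CPM (3.37 ± 0.35) and the asparagine synthetase ASNS from 54.0 and 53.2 to 109 and 116 CPM (1.07 ± 0.25). NUPR1 has 90.1% unique windows. ASNS was lower in B2B (-1.14 ± 0.26), a line difference of 2.21 ± 0.37, adjusted p = 0.00115. Cytosolic heat shock chaperones were called lower in 9 of 22 cases, and in 0 when only genes with unique windows were kept. Many of these genes have close copies, and their part in the falls was not tested. HSP90AA1 is an example, from 3768 and 3334 to 1826 and 1414 CPM (-1.13 ± 0.13) with 84.9% unique windows. HSPB8, a small chaperone with unique windows, was higher, from 5.56 and 4.62 to 14.1 and 16.2 CPM (1.57 ± 0.25).

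Lysosome and autophagy genes were called higher in 11 of 37 cases and lower in 0. WIPI1, which acts in autophagosome formation (chromosome 17, 68420948 to 68457513), rose from 4.72 and 4.30 to 15.8 and 21.8 CPM (2.06 ± 0.18, adjusted p = 2.25e-06), the sterol carrier NPC2 from 23.7 and 21.1 to 63.7 and 58.3 CPM (1.45 ± 0.13, adjusted p = 2.78e-06) and the factor MITF from 19.8 and 27.9 to 46.2 and 55.6 CPM (1.09 ± 0.16). In B2B 16 of these genes were called higher and 0 lower, and the line difference was called for 3 with the higher and 8 with the lower response in A549, the latter 3 without A549_NT replicate 1 or B2B_NT replicate 1, 4 without B2B_NT replicate 2 or B2B_SR11302 replicate 2, 5 without A549_SR11302 replicate 2 and 12 without A549_SR11302 replicate 1. NPC2 rose in both lines (1.11 ± 0.13 in B2B, line difference 0.34 ± 0.18, adjusted p = 0.219).

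Hypoxia and glycolysis genes had 8 of 35 members called higher and 5 lower (7 and 3 without A549_NT replicate 1, 7 and 8 without A549_SR11302 replicate 1). CA9, the carbonic anhydrase that hypoxia induces, went from 27.0 and 23 to 4.81 and 5.90 CPM (-2.22 ± 0.20, adjusted p = 3.32e-06), while BNIP3L, a receptor of mitophagy, rose from 54.2 and 58.1 to 101 and 190.0 CPM (1.37 ± 0.21) and ANGPTL4, an inhibitor of lipoprotein lipase, from 30.6 and 26.2 to 61.1 and 51.2 CPM (0.98 ± 0.15). PGAM1 (-2.25 ± 0.12) has 36.4% unique windows. Of 30 ABC transporters 4 were called higher and 3 lower (3 and 1 without A549_NT replicate 1, 4 and 6 without A549_SR11302 replicate 2). Over all genes 14.8% were called higher and 13% lower. ABCB1, the drug efflux pump P-glycoprotein (chromosome 7, 87503017 to 87713323), went from 9.34 and 11 to 34.8 and 43.3 CPM (1.94 ± 0.16, adjusted p = 1.29e-06), and in B2B it stood at 0.0479 and 0.0407 CPM in B2B_NT and 0.781 and 0.676 CPM in B2B_SR11302. The cholesterol exporter ABCA1 went from 3.72 and 3.45 to 7.33 and 8.95 CPM (1.18 ± 0.19).

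Clock genes had 6 of 19 members called higher and 1 lower, with a median of 0.41 (2 and 1 without A549_NT replicate 1, 4 and 1 without A549_NT replicate 2, 6 and 2 without A549_SR11302 replicate 1, 5 and 1, median 0.21, without A549_SR11302 replicate 2). The activators CLOCK (0.11 ± 0.17), ARNTL (0.23 ± 0.16), ARNTL2 (0.38 ± 0.16) and NPAS2 (-0.49 ± 0.16) did not pass, nor did PER1 (0.41 ± 0.17), PER3 (0.27 ± 0.14), CRY2 (0.49 ± 0.14), NR1D1 (-0.27 ± 0.16), NFIL3 (0.00 ± 0.14), BHLHE40 (-0.28 ± 0.10) or BHLHE41 (0.65 ± 0.54). CIART had 2 counts without and 4 with treatment. The repressor PER2 was lower, from 62.6 and 69.2 to 35.3 and 37.5 CPM (-0.86 ± 0.12, adjusted p = 9.79e-05), while its partner CRY1 was higher, from 35.0 and 36.5 to 63.1 and 57.8 CPM (0.76 ± 0.11, adjusted p = 0.000121). The output factor TEF went from 7.61 and 6.58 to 13 and 12.1 CPM (0.82 ± 0.17). NR1D2, a repressor of the clock (0.56 ± 0.18), lost its call without A549_SR11302 replicate 2 (0.19), without A549_NT replicate 1 (0.48) or 2 (0.64) and after GC correction (0.44). HLF (0.84 ± 0.18) lost its call without A549_NT replicate 1 (0.67), RORA (1.27 ± 0.34) without A549_NT replicate 1 (0.90) or A549_SR11302 replicate 2 (0.79), and DBP (0.56 ± 0.21), whose adjusted p was at the threshold, without each of the 4 libraries (0.56, 0.57, 0.53 and 0.63).

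KLF factors, zinc finger proteins that bind GC-rich sites, had 6 of 14 members called lower and 4 higher (6 and 2 without A549_NT replicate 1 or A549_NT replicate 2, 7 and 2 without A549_SR11302 replicate 2). KLF2, an early gene in part, went from 52.6 and 46.4 to 5.24 and 4.06 CPM (-3.42 ± 0.21, adjusted p = 7.57e-08) and KLF6 from 190.0 and 189 to 73.2 and 76.8 CPM (-1.34 ± 0.12), while KLF12 and KLF9 were higher, from 6.89 and 8.76 to 12.6 and 21.0 CPM (1.10 ± 0.21) and from 6.45 and 6.96 to 11.2 and 15.8 CPM (1.02 ± 0.17). In the list of RGS and G protein coupled receptor genes, 8 of 28 were called higher and 0 lower (5 and 0 without A549_NT replicate 2). RGS5, which speeds the shutdown of G protein signals, rose from 1.5 and 2.76 to 6.22 and 8.28 CPM (1.76 ± 0.26). Of 12 tested S100 calcium-binding proteins 4 were called lower and 1 higher (1 and 1 without A549_NT replicate 1, 7 and 0 without A549_SR11302 replicate 1, 2 and 1 without A549_SR11302 replicate 2), S100P among the former, from 9.84 and 9.88 to 2.48 and 4.02 CPM (-1.59 ± 0.24, adjusted p = 0.000322).

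The genes outside the lists among the 12 largest rises, of those with at least 10 CPM in the higher group and 95% unique windows, were led by FLRT2, a guidance and adhesion protein, from 0.333 and 0.903 to 8.89 and 16.4 CPM (4.33 ± 0.37), and GFRA1, the receptor subunit for the neurotrophic factor GDNF (chromosome 10, 116056925 to 116276803), from 7.11 and 8.55 to 111 and 97.2 CPM (3.73 ± 0.15, adjusted p = 8.36e-10). OLR1, a receptor of oxidised LDL, went from 0.723 and 0.956 to 9.86 and 11.5 CPM (3.66 ± 0.20), the zinc finger gene ZNF304 from 1.0 and 1.70 to 17.0 and 17.2 CPM (3.65 ± 0.20) and KIRREL3, an adhesion protein of the immunoglobulin family, from 3.06 and 3.77 to 37.5 and 25.7 CPM (3.20 ± 0.21). HAPLN3, which links hyaluronan to proteoglycans, went from 3.17 and 2.44 to 25.6 and 21.5 CPM (3.07 ± 0.21). Both treated libraries were above both untreated ones in all 6. In B2B, FLRT2 stood at 81.4 and 79.3 CPM in B2B_NT and 87.1 and 69.9 CPM in B2B_SR11302. GFRA1 stood there at 385 and 386 CPM in B2B_NT and 433 and 407 CPM in B2B_SR11302.

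Among the 12 largest falls by the same limits, the genes outside the lists were of several kinds. CDHR5, a protocadherin of microvilli, went from 10.1 and 10.8 to 0.825 and 1.67 CPM (-3.03 ± 0.28), and the unconventional myosins MYO1A and MYO15B from 10.7 and 10.5 to 1.12 and 1.38 CPM (-3.07 ± 0.34) and from 123 and 112 to 15.0 and 15.9 CPM (-2.92 ± 0.20, adjusted p = 2.62e-07). CAPN8, a calpain protease of the stomach, went from 11.3 and 11.6 to 0.340 and 0.920 CPM (-4.13 ± 0.35). HR, the corepressor named after the hairless mouse, went from 129 and 107 to 8.16 and 10.5 CPM (-3.66 ± 0.18, adjusted p = 9.93e-09), and NTRK3, the receptor of neurotrophin 3, from 204 and 207 to 29.3 and 28.3 CPM (-2.84 ± 0.14, adjusted p = 9.89e-09). Treated libraries lay below untreated ones in each case.

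**Figure D4:**
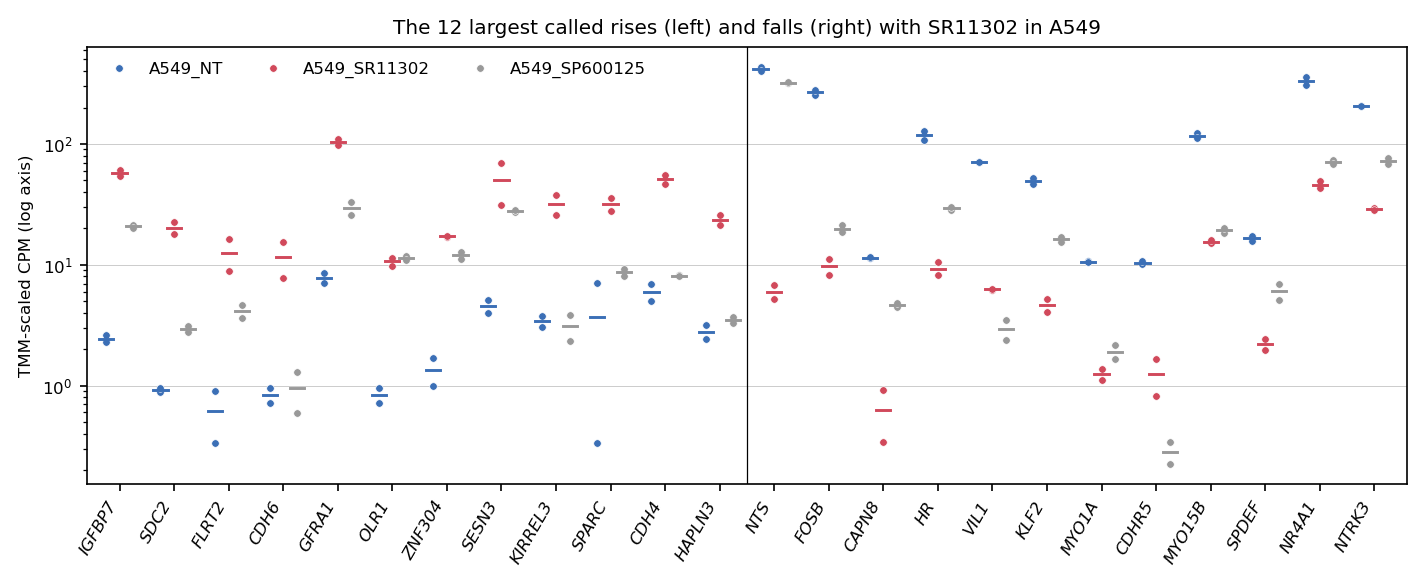
TMM-scaled CPM (log axis) of the 12 called genes with the largest rise (left) and the 12 with the largest fall (right) among genes with at least 10 CPM in the higher group and at least 95% unique windows, in A549_NT (blue), A549_SR11302 (red) and A549_SP600125 (grey), 2 libraries each with lines at the means. NTS stands at 5.24 and 6.78 CPM with SR11302 and at 317 and 327 CPM with SP600125, while VIL1 is low with both inhibitors.

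A direct test of the SR11302 libraries against the SP600125 libraries of A549, which uses no untreated library, called 37.1% of genes, 20.5% higher and 16.6% lower with SR11302. Doses differed, at 10 µM and 50 µM. NTS was far lower with SR11302 (317 and 327 CPM with SP600125, a difference of -5.74 ± 0.45, adjusted p = 1.60e-06). MMP1, a collagenase, stood at 0.0486 and 0.0418 CPM with SR11302 and 12.4 and 11 CPM with SP600125, and S100P at 58.3 and 60.03 CPM with SP600125 (-4.17 ± 0.24, adjusted p = 1.48e-07). OLFM1, a secreted olfactomedin, was also lower with SR11302 (-4.23 ± 0.26). In the other direction CPA4, a carboxypeptidase, stood at 41.3 and 44.3 CPM with SR11302 and 1.12 and 1.79 CPM with SP600125 (4.86 ± 0.29, adjusted p = 1.17e-07). CCBE1, a matrix protein of lymph vessels, was at 15.1 and 12.8 CPM with SR11302 and 1.71 and 0.482 CPM with SP600125 (3.69 ± 0.34) and the macrophage marker CD68, also a lysosome protein, at 44.5 and 49.8 CPM with SR11302 and 3.35 and 3.52 CPM with SP600125 (3.78 ± 0.20).

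The immediate early genes were lower with SR11302 than with SP600125 for 10 of 16 members and higher for 1, the p53 targets lower for 12 of 30 and higher for 3, and the replication genes higher for 16 of 44 and lower for 2. Against the same untreated libraries, which both comparisons share, EGR1 changed by -2.50 ± 0.17 with SR11302 and by -1.09 ± 0.16 with SP600125, RRM2 by -1.02 ± 0.14 and -2.70 ± 0.15, and SPATA18 by 2.71 ± 0.23 and 3.35 ± 0.23.

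Between the lines, the largest differences had several genes that were at or near 0 in one line. TLR4, the receptor of bacterial lipopolysaccharide, had 1 count in A549_NT and 172 in A549_SR11302, a ratio of 142 with an interval of 25.2 to 5655, and it stood at 23.7 and 21.7 CPM in B2B_NT and 15.7 and 12.1 CPM in B2B_SR11302 (-0.70 ± 0.28). RGS4 had 0 counts in A549_NT and 11 in A549_SR11302, at least 3.03-fold higher, a call that was lost without A549_NT replicate 1 or 2 or A549_SR11302 replicate 2, against a fall in B2B (-2.70 ± 0.21). DMKN, a secreted skin protein, went from 22.8 and 21.7 to 10.6 and 10.2 CPM in A549 (-1.10 ± 0.16) and had 0.718 and 0.896 CPM in B2B_NT and 5.96 and 7.44 CPM in B2B_SR11302 (line difference -4.12 ± 0.28, adjusted p = 1.38e-06), and NPY1R, a receptor of neuropeptide Y, from 10.4 and 10.1 to 2.09 and 5.86 CPM in A549 and 0.0479 and 0.0814 CPM in B2B_NT and 0.699 and 0.338 CPM in B2B_SR11302. For CPLX2, ALDH1A1, RSPO3 and CYP24A1, the difference rests on B2B_NT replicate 2, the only untreated B2B library with more than 1.5 CPM of each, and for CDKN2A on A549_NT replicate 2.

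**Figure D5:**
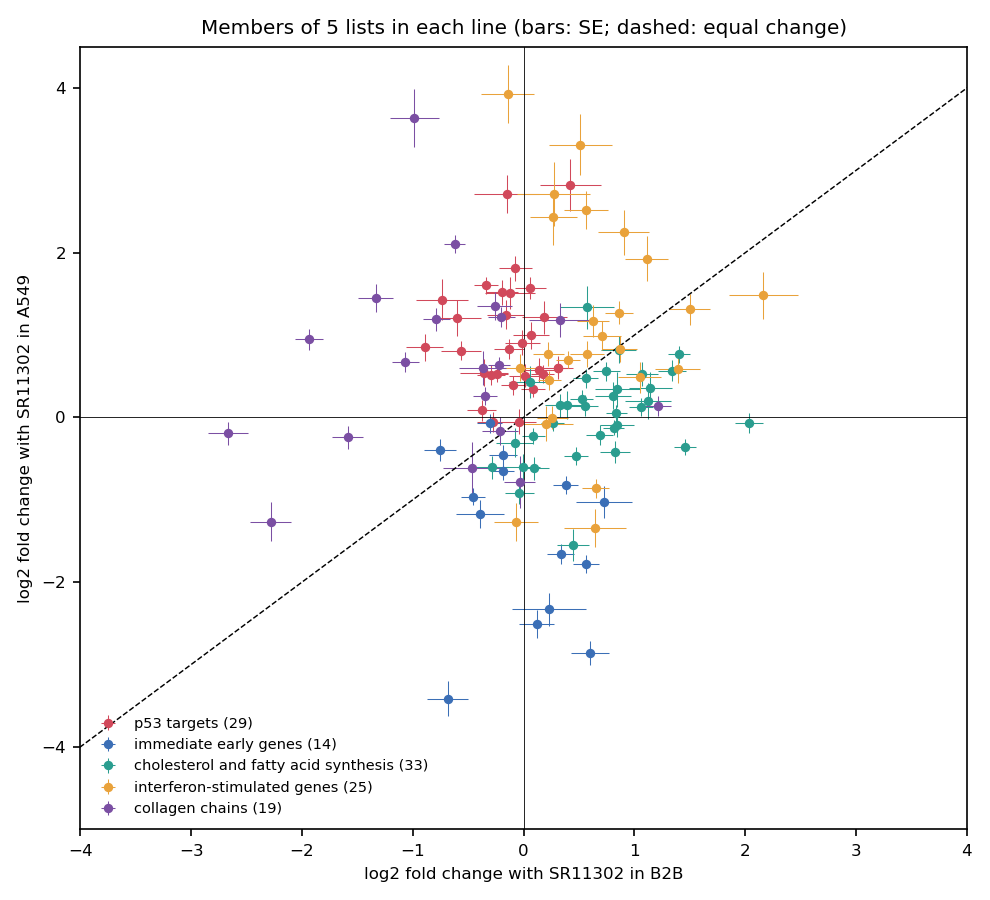
Log2 fold change with SR11302 in A549 (vertical) against that in B2B (horizontal) for members of 5 lists with at least 1 CPM in the higher group of each line, with bars of 1 SE and a dashed line of equal change. Most p53 targets and collagen chains lie above the dashed line, most immediate early genes below it, and most cholesterol genes below it and to the right of 0.

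Genes with near copies elsewhere in the genome behaved apart from the rest. Of the 302 tested genes with under 50% unique windows, which are stretches of 50 bases of their transcripts found once in the genome, 54.0% were called lower and 3.97% higher, with a median of -0.83. Of the 12911 genes with 95% or more unique windows, 10.1% were called lower and 16% higher, with a median of 0.06. Reads aligned to several places made up 24.2 to 24.7% of tallied reads in A549_NT and 21.8 to 22.8% in A549_SR11302, and ambiguous reads 1.95 to 2.03% and 1.19 to 1.31%. Their part in these falls was not tested. Across 9032 genes with unique windows, the log2 fold change and the GC content of the transcript had a rank correlation of -0.26, and the difference between replicates 2 and 1 had one of -0.67 in A549_SR11302 and of -0.66 in A549_NT. The genes share libraries and are not independent replicates.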

How the data were processed

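RNA sequencing libraries of A549 and B2B cells were used as gene counts, which the authors had made and deposited 1 file per library. Per the labels, reads were aligned to hg38 with STAR 2.7.10a and counted with HTSeq 1.99.2, and the values are raw counts with no normalization. The study's methods name a KAPA mRNA kit and Illumina sequencers. No source used here gives the read length, strand setting or annotation release, so overlapping and antisense genes cannot be told apart. Summary lines of the counter were left out of library sizes and tests.

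Genes were filtered with filterByExpr, scaled by TMM and fitted with edgeR 4.0.16 (quasi-likelihood test, R 4.3.3) over all 12 libraries in 6 groups, with 6 residual degrees of freedom, which the groups share as 1 estimate of the spread. Contrasts were A549_SR11302 against A549_NT, the same in B2B, their difference, and A549_SR11302 against A549_SP600125. Standard errors are the log2 fold change over the root of F. The fit was tested on simulated data. Unique windows are stretches of 50 bases, taken every 10 bases of a gene's transcripts, that occur once in the reference genome. Alternatives were other scalings, filters, GC offsets, a replicate block, leaving out each library, and DESeq2 1.42.0.

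Named genes were the 12 largest called rises and falls (at least 10 CPM in the higher group and 95% unique windows), up to 6 called members per list, all members of the early gene, cadherin, IGF binding, EGF receptor, retinoid and clock lists, and the 6 largest differences per direction between lines and inhibitors. Rankings of the largest rises, falls and differences left out unnamed loci, microRNAs, snoRNAs, pseudogenes and antisense genes. These members and the gene lists were chosen with earlier results of these data known. CCND1, MDM2, MKI67, SAMD9, IFIT1, ISG15, ISG20, IRF7, OAS3, OAS1, IFIH1, LIF, COL4A1, ITGB4, ZEB2, SNAI1, FN1, KRT81, AGR2, TCF7, ZNRF3, RNF43, HMGCS1, NQO1 and JUN lie outside this rule and were chosen after their values were seen. Some genes that the rule names are not reported here.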

Additional observations from a re-analysis of the deposited data

Results flagged for a closer look

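The responses of A549 and B2B to SR11302 differed for 11 named genes by the test of the difference itself, given here as the log2 response of A549 minus that of B2B. The difference was higher in A549 for CPLX2 (9.67), ALDH1A1 (9.20), RGS4 (8.0), TLR4 (7.52), RSPO3 (7.25) and CYP24A1 (6.21). For CPLX2, ALDH1A1, RSPO3 and CYP24A1 it rests on B2B_NT replicate 2, and these genes are abundant in A549. It was lower in A549 for CDKN2A (-6.36), NPY1R (-4.27), DMKN (-4.12), FOSB (-3.66) and NR4A1 (-3.46). CDKN2A was at 0 counts in 3 of the 4 A549 libraries. For genes at or near 0 the fitted values depend on the prior count.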

How the results depend on the processing

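The 2423 genes called higher ranged from 1629 to 2986 and the 2134 called lower from 1513 to 2623 when each library was left out in turn. Both counts stayed within 1.5 times of these with relative log expression factors, no filter on low counts and GC content offsets. The same held for scaling by library size alone (3192 higher and 1622 lower), the 4 A549 libraries alone (1811 and 1795) and DESeq2 (2209 and 1834). With genes of unique windows only, 1365 were called lower. The 2579 genes whose response differed between the lines ranged from 1375 to 4768, with 1375 without A549_NT replicate 1, 1498 without B2B_NT replicate 1, 1573 without B2B_NT replicate 2, 1617 without B2B_SR11302 replicate 2 and 4768 without A549_SR11302 replicate 1. The cause was not tested. Replicate numbers were taken as names only, and with the replicate block 2344 genes were called higher and 2074 lower. Replicates with the same number deviated together in A549_NT and A549_SR11302 with a correlation across genes of 0.24.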
